A study of Mus musculus with 16 samples.

Results

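The Slc22 genes described here encode plasma membrane transporters of organic anions, organic cations and carnitine. They are Slc22a5, Slc22a7, Slc22a23, Slc22a26, Slc22a27, Slc22a28, Slc22a29 and Slc22a30, 8 genes in all. The arrays gave 19938 genes with a probe set of their own, 7 of the 8 among them, and Slc22a28 was read only by a probe set shared with its neighbours. Probe sets were selected on brightness: where a gene had several, the one with the highest mean over the 16 arrays was used. The genes themselves were chosen with earlier results of these arrays known, so the p-values below describe these arrays and are not independent evidence.

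RNA was measured in livers of male mice, 4 months old, on Affymetrix Mouse Gene 1.0 ST arrays, with 1 array per liver and 4 livers in each of 4 groups. The heterozygous groups were Mut +/-;TgINS-MCK-Mut and the mutant groups Mut -/-;TgINS-MCK-Mut, so all mice carried the transgene. The MCK (muscle creatine kinase) promoter in its name drives expression in muscle. Mut, now Mmut, encodes methylmalonyl-CoA mutase, whose loss causes methylmalonic acidemia. Each genotype was sampled on a normal diet without fasting and after a fast, which lasted 12 hours in heterozygotes and 8 to 12 hours in mutants. Genotype and fast length therefore cannot be told apart between the fasted groups. The labels do not say whether animals of different groups were littermates.

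Transporters of this family move small charged molecules across the basolateral and apical membranes of liver, kidney and gut cells. Slc22a5 (Octn2) is the sodium-dependent transporter that brings carnitine into cells, where carnitine carries long-chain acyl groups into mitochondria and takes up excess acyl groups such as propionyl. Slc22a7 (Oat2) is an organic anion transporter of the hepatocyte's blood-facing membrane. Slc22a27 (Oat9) was reported in mouse as a carnitine transporter in one of its splice forms. Slc22a23 is an orphan with no settled substrate. Slc22a26, Slc22a28, Slc22a29 and Slc22a30 are rodent organic anion transporter-like genes whose substrates are poorly defined.

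Part of the family lies side by side. In the RefSeq gene table of GRCm38.p6, Slc22a26, Slc22a27, Slc22a28, Slc22a29 and Slc22a30 follow each other on chromosome 19 with no other protein-coding gene between them, after Slc22a19 and before Slc22a8. Slc22a5 is on chromosome 11, next to Slc22a21, Slc22a7 on chromosome 17 and Slc22a23 on chromosome 13.

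The array did not read all of these neighbours separately. The platform's annotation gives 1 probe set jointly to Slc22a28, Slc22a29 and Slc22a30, and it is the only one for Slc22a28. Slc22a29 and Slc22a30 each have a further probe set of their own. The shared probe set was the brightest for all 3 genes, with a mean of 11.17 over the 16 arrays against 10.85 for the Slc22a30 probe set and 6.41 for the Slc22a29 probe set. The rule thus reads the 8 genes with 6 probe sets, and the other 2 are described beside them. A change of the shared probe set cannot be assigned to 1 of the 3 genes.

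Promoter windows of these 3 genes are shown because they resemble each other. Each runs from 250 bases before to 50 bases after the annotated start, on the minus strand of GRCm38.p6 chromosome 19, as RefSeq gives it, at chr19:8131933-8132232 for Slc22a28, chr19:8218851-8219150 for Slc22a29 and chr19:8405056-8405355 for Slc22a30. Capitals mark bases that differ from the partner within the aligned stretch. The partner is Slc22a30 for Slc22a28 and Slc22a28 for both others. Bases outside that stretch are in lower case too and were not compared, such as all those before base 82 of Slc22a29.
Slc22a28: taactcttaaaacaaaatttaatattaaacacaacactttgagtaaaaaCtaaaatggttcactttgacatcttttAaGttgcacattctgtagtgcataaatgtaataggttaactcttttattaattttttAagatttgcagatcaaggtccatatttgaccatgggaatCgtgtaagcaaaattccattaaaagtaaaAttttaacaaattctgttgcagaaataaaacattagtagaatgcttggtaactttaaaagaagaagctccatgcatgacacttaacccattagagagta
Slc22a29: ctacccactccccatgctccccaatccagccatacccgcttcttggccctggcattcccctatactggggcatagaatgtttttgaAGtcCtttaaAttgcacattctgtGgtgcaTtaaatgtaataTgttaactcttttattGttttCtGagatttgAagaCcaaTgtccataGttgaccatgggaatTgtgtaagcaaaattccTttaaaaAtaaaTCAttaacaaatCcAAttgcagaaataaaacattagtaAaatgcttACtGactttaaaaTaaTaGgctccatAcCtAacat
Slc22a30: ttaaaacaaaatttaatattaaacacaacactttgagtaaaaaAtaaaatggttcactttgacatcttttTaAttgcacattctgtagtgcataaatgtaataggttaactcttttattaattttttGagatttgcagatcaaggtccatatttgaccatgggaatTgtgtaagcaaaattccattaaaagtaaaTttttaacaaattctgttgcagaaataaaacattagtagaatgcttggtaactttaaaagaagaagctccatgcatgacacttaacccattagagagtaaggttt
The windows of Slc22a28 and Slc22a30 were identical at 288 of 294 aligned bases (98.0%). The window of Slc22a29 matched that of Slc22a28 at 185 of 219 aligned positions (84.5%). The windows of Slc22a29 and Slc22a30 matched at 188 of 219 (85.8%). All other pairs among the 7 windows aligned over at most 32 positions. Slc22a7 had no entry in the table.

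The windows of Slc22a26 and Slc22a27 are shown because these 2 genes rose most in mutants. They lie on the minus strand at chr19:7802618-7802917 and chr19:7965978-7966277 of the same build. Capitals in Slc22a26 mark a match to TTCNNNGAA, the palindrome of sites bound by STAT5 and BCL6, transcription factors of growth hormone signalling. In Slc22a27 they mark the same letters with 4 bases between TTC and GAA, a variant searched beside it.
Slc22a26: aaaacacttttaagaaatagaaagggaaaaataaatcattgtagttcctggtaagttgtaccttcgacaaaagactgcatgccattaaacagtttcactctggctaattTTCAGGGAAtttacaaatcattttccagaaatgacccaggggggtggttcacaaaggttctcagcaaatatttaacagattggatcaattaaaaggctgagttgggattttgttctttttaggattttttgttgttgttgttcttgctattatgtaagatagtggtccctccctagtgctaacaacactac
Slc22a27: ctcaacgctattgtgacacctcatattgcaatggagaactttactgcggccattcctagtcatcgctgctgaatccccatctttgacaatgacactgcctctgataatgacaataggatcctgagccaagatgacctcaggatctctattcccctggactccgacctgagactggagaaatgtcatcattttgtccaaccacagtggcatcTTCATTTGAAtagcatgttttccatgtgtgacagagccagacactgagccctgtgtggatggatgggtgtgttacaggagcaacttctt
The Slc22a26 match starts 141 bases before the annotated start and the Slc22a27 match 39 bases before it. None of the 7 windows held any other match to either motif. Of all 32851 promoter windows in the table, 8.30% held TTCNNNGAA (the same on both strands) and 6.95% held the form with 4 bases between. None of the 7 held the direct repeat of AGGTCA with 1 base between (bound by PPAR-alpha), CAAAGTCCA (HNF4A) or TATAAA on either strand, which 0.0396%, 0.475% and 13.6% of all windows held. A match describes letters and shows no binding, and no match says only that these letters are not in this window.

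Before the members, the arrays were checked against their labels. Mmut, the targeted gene, read 7.85 to 8.33 on the 8 mutant arrays and 9.66 to 10.10 on the 8 heterozygous ones, on the log2 scale used for all values here. Unfasted mutant replicate 1 carried transcripts of the exocrine pancreas. All 8 acinar markers measured were high there, such as Cpa1 at 12.29 against 6.84 to 7.22 on the 15 other arrays. The mean of 9 hepatocyte markers lay between 12.75 and 13.01 on every array. It was 12.81 to 12.86 in fasted mutants and 12.93 to 13.01 in fasted heterozygotes, while the unfasted genotypes overlapped. Of the 9 markers, 1 fell in mutants in each feeding state and none rose. The mean of 7 markers of the kidney tubule, where Slc22 genes are also known to be active, lay between 6.18 and 6.54. Its highest value came from a fasted mutant, in a group with a median of 6.22. The other groups reached at most 6.30. Whether the fasted mutant at 6.54 carried kidney transcripts was not tested. Endothelial markers rose in mutants (7 of 9 in each feeding state), as did stellate cell markers (5 of 7 unfasted, 2 of 7 fasted) and, in fasted mutants, 8 of 9 macrophage markers. Of 4 cholangiocyte markers, none passed between unfasted genotypes and 1 fell in fasted mutants. Among all features, 4.25% rose and 3.7% fell in unfasted mutants, and 8.62% rose and 5.03% fell in fasted mutants. In bulk liver, fewer cells of a type and less RNA per cell cannot be told apart, and the part of cell composition in the results below was not tested.

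**Figure D1:**
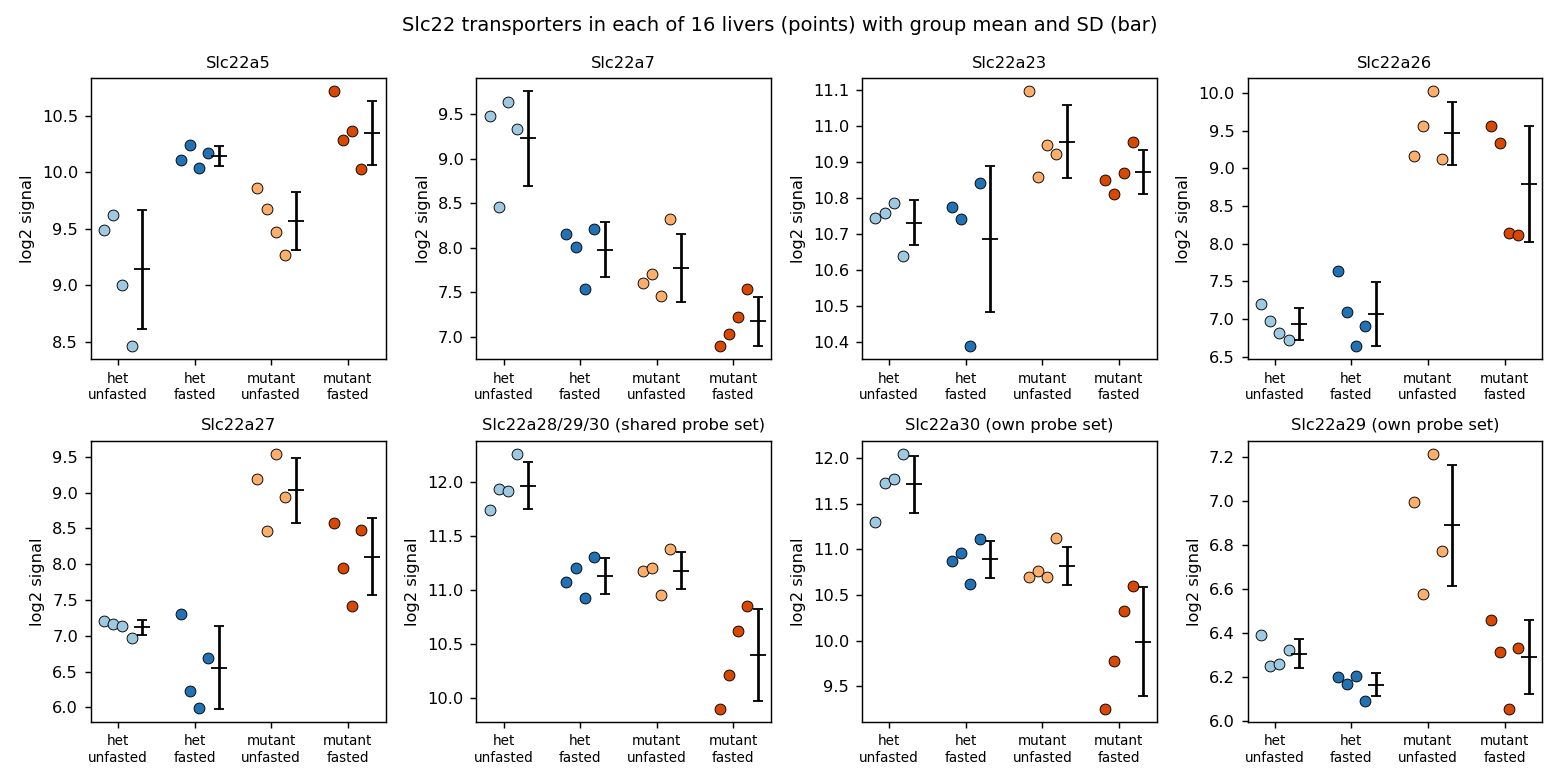
Log2 signal (y axes, each on its own scale) of the 6 selected probe sets and the own probe sets of Slc22a30 and Slc22a29, by group (x axes). Points are single livers and bars are the group mean with SD (n = 4); Slc22a26 lies at 8.11 or above in all mutants and at 7.64 or below in all heterozygotes.

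Slc22a5, the carnitine transporter, was higher after fasting in heterozygotes. In unfasted heterozygotes it read 9.49, 9.62, 9.01 and 8.46, and in fasted heterozygotes 10.11, 10.24, 10.04 and 10.17. The groups did not overlap, and the unfasted livers were spread far more widely than the fasted ones. It rose by 0.996 ± 0.21 (log2 difference ± standard error, 1.99-fold, limma adjusted p = 0.022). In mutants it read 9.86, 9.67, 9.47 and 9.27 unfasted and 10.72, 10.28, 10.36 and 10.02 fasted. These groups did not overlap either, at a difference of 0.78 ± 0.21 that narrowly missed the threshold (limma adjusted p = 0.051). The fasting responses of the genotypes differed by -0.22 (95% interval -0.84 to 0.40, limma adjusted p = 0.77). Between genotypes Slc22a5 read 0.42 ± 0.21 higher in unfasted mutants (limma adjusted p = 0.25) and 0.21 ± 0.21 higher in fasted mutants (limma adjusted p = 0.52), with overlapping groups both times. The heterozygous call was lost without unfasted heterozygote replicates 3 or 4 or without any of the 4 fasted heterozygotes (limma adjusted p between 0.050 and 0.073). In mutants, the difference was called without unfasted mutant replicate 1, the array with acinar transcripts, at 0.87 (limma adjusted p = 0.027), and without unfasted heterozygote replicates 1, 2 or 4 or fasted mutant replicate 4. Without unfasted mutant replicate 1, 1942 of all 19939 features were called for fasting in mutants, against 669 with all arrays.

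Slc22a7 was lower both in mutants and after fasting. It read 9.48, 8.45, 9.64 and 9.34 in unfasted heterozygotes and 7.61, 7.70, 7.46 and 8.32 in unfasted mutants. Every mutant lay below every heterozygote, with heterozygote replicate 2 and mutant replicate 4 close to each other. The log2 difference was -1.45 ± 0.24 (2.74-fold, limma adjusted p = 0.0024). It read 8.15, 8.01, 7.53 and 8.21 in fasted heterozygotes and 6.89, 7.03, 7.23 and 7.53 in fasted mutants, where the highest mutant reached the lowest heterozygote. This difference was -0.81 ± 0.24 (1.75-fold, limma adjusted p = 0.038). Fasting lowered it by -1.25 ± 0.24 in heterozygotes (2.38-fold, limma adjusted p = 0.015), with no overlap. In mutants the fasting difference was -0.60 ± 0.24 with overlapping groups (limma adjusted p = 0.16). The fasting responses differed by 0.65 (95% interval -0.08 to 1.37, limma adjusted p = 0.48). Unfasted mutants and fasted heterozygotes read close to each other, at means of 7.77 and 7.98. The call between fasted genotypes was lost without fasted mutant replicates 1, 2 or 3, without fasted heterozygote replicates 1, 2 or 4 (limma adjusted p up to 0.0999) and with robust variance moderation (0.053). The fasting call in heterozygotes was lost without unfasted heterozygote replicates 3 or 4 or fasted heterozygote replicate 3 (limma adjusted p up to 0.056).

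Within the chromosome 19 cluster, Slc22a26 and Slc22a27 were higher in mutants. Slc22a26 read 7.21, 6.97, 6.82 and 6.72 in unfasted heterozygotes and 9.17, 9.56, 10.03 and 9.12 in unfasted mutants. The rise of 2.54 ± 0.31 (5.82-fold, limma adjusted p = 0.00027) was the largest of any member in this comparison. It read 7.64, 7.10, 6.64 and 6.90 in fasted heterozygotes and 9.57, 9.34, 8.14 and 8.11 in fasted mutants. All mutants again lay above all heterozygotes, by 1.72 ± 0.31 on average (3.30-fold, limma adjusted p = 0.0027), and the fasted mutants fell into a higher and a lower pair. Fasting moved Slc22a26 past the threshold in neither genotype, with differences of 0.14 ± 0.31 in heterozygotes (limma adjusted p = 0.94) and -0.68 ± 0.31 in mutants (limma adjusted p = 0.21).

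Slc22a27 read 7.20, 7.17, 7.13 and 6.97 in unfasted heterozygotes and 9.19, 8.46, 9.54 and 8.94 in unfasted mutants. It rose by 1.92 ± 0.28 (3.77-fold, limma adjusted p = 0.0011). In the fasted state it read 7.30, 6.23, 5.99 and 6.69 in heterozygotes and 8.57, 7.95, 7.42 and 8.48 in mutants. The lowest mutant lay only just above the highest heterozygote, and the mean difference was 1.55 ± 0.28 (2.94-fold, limma adjusted p = 0.0029). Its fasting differences were -0.56 ± 0.28 in heterozygotes (limma adjusted p = 0.46) and -0.93 ± 0.28 in mutants (limma adjusted p = 0.078). The genotype calls of Slc22a26 and Slc22a27 held without each array in turn, with limma adjusted p up to 0.012 for both.

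The probe set shared by Slc22a28, Slc22a29 and Slc22a30 went the other way. It read 11.74, 11.94, 11.92 and 12.26 in unfasted heterozygotes and 11.17, 11.21, 10.96 and 11.38 in unfasted mutants. It read 11.08, 11.21, 10.93 and 11.31 in fasted heterozygotes and 9.90, 10.22, 10.62 and 10.86 in fasted mutants. Unfasted heterozygotes were highest, fasted mutants lowest, and the fasted heterozygotes and unfasted mutants covered nearly the same range between them. It fell in mutants by 0.79 on the log2 scale unfasted (-0.79 ± 0.17, 1.72-fold, limma adjusted p = 0.011) and by 0.73 fasted (-0.73 ± 0.17, 1.66-fold, limma adjusted p = 0.010). Fasting lowered it by -0.83 ± 0.17 in heterozygotes (1.78-fold, limma adjusted p = 0.019) and by -0.78 ± 0.17 in mutants (1.72-fold, limma adjusted p = 0.022), with no overlap in any of the 4 comparisons. The fasting responses differed by 0.05 (95% interval -0.45 to 0.56, limma adjusted p = 0.94). The genotype calls held without each array in turn. The fasting call was lost in heterozygotes without unfasted replicates 3 or 4 or fasted replicates 1 or 3 (limma adjusted p up to 0.073). In mutants it was lost without unfasted replicates 2 or 4 or fasted replicate 2 (limma adjusted p up to 0.070) and in a fit of these 8 arrays alone (0.12). That fit called 33 of all 19939 features.

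**Figure D2:**
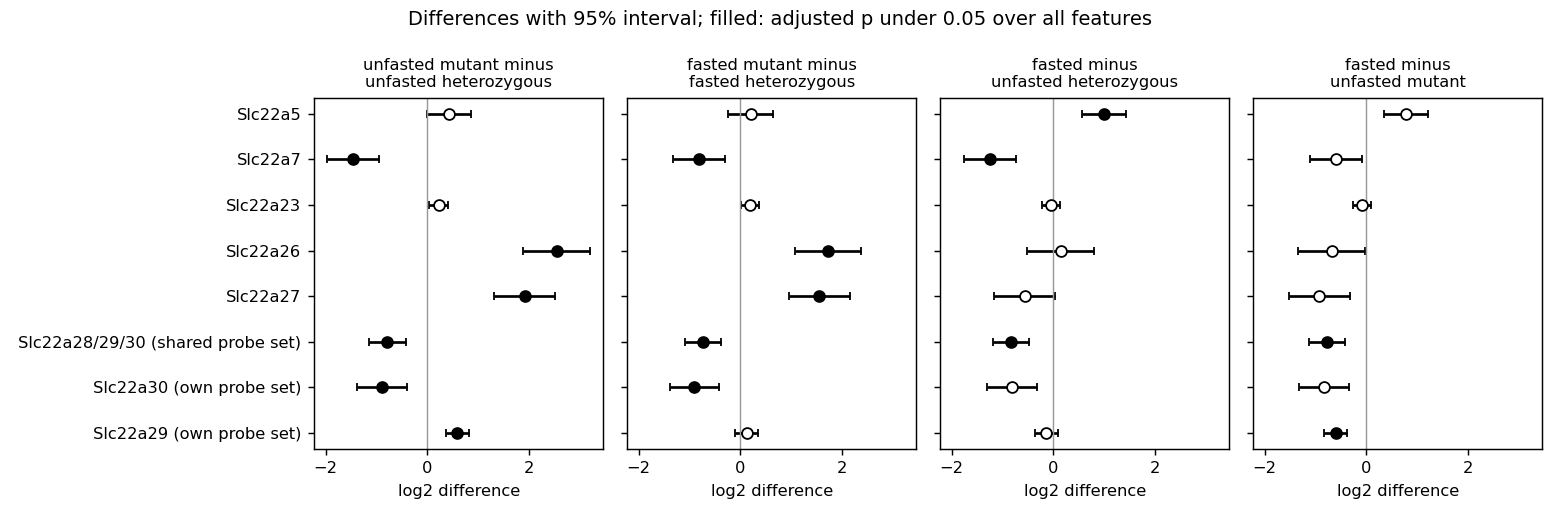
Log2 differences (x axes) of the 8 probe sets (rows) in the 4 comparisons, with 95% intervals from the limma fit. Filled points have an adjusted p under 0.05 over all 19939 features; Slc22a26 and Slc22a27 lie right of 0 and Slc22a7 and the shared probe set left of 0 in both comparisons of genotype.

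Slc22a30 and Slc22a29 differed when read by their own probe sets. The Slc22a30 probe set followed the shared one, from 11.30 to 12.04 in unfasted heterozygotes, 10.62 to 11.11 in fasted heterozygotes, 10.70 to 11.13 in unfasted mutants and 9.25 to 10.60 in fasted mutants. It was lower in mutants by -0.89 ± 0.23 unfasted (1.85-fold, limma adjusted p = 0.026) and by -0.90 ± 0.23 fasted (1.87-fold, limma adjusted p = 0.017), and neither pair of groups overlapped. Its fasting differences of -0.82 ± 0.23 in heterozygotes and -0.83 ± 0.23 in mutants did not pass (limma adjusted p = 0.098 and 0.057). The unfasted genotype call was lost without unfasted mutant replicates 1 (the array with acinar transcripts), 2 or 3 or unfasted heterozygote replicates 2, 3 or 4 (limma adjusted p up to 0.091). The fasted call was lost without fasted mutant replicate 2 or fasted heterozygote replicate 4 (limma adjusted p up to 0.056). The fasting difference in heterozygotes was called without fasted mutant replicate 1 (limma adjusted p = 0.029), and that in mutants without unfasted mutant replicate 1 (0.045) or fasted mutant replicate 4 (0.026).

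The Slc22a29 probe set was dim, brighter than 25.4% of the features measured, so its changes can be understated. It read 6.39, 6.25, 6.26 and 6.32 in unfasted heterozygotes and 7.00, 6.58, 7.22 and 6.77 in unfasted mutants. All unfasted mutants lay above all heterozygotes, and the rise was 0.59 ± 0.11 (limma adjusted p = 0.0041). In fasted mutants it was back at 6.05 to 6.46, a fall of -0.60 ± 0.11 from the unfasted mutants (1.52-fold, limma adjusted p = 0.0099). Fasted heterozygotes read 6.09 to 6.20, with differences of -0.14 ± 0.11 from unfasted heterozygotes (limma adjusted p = 0.70) and 0.12 ± 0.11 between fasted genotypes (limma adjusted p = 0.45). Both calls held without each array in turn. The fall with fasting in mutants did not hold in a fit of these 8 arrays alone (limma adjusted p = 0.10). That fit called 33 of all 19939 features. The fasting responses of the genotypes differed by -0.46 ± 0.15, which did not pass (limma adjusted p = 0.37).

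**Figure D3:**
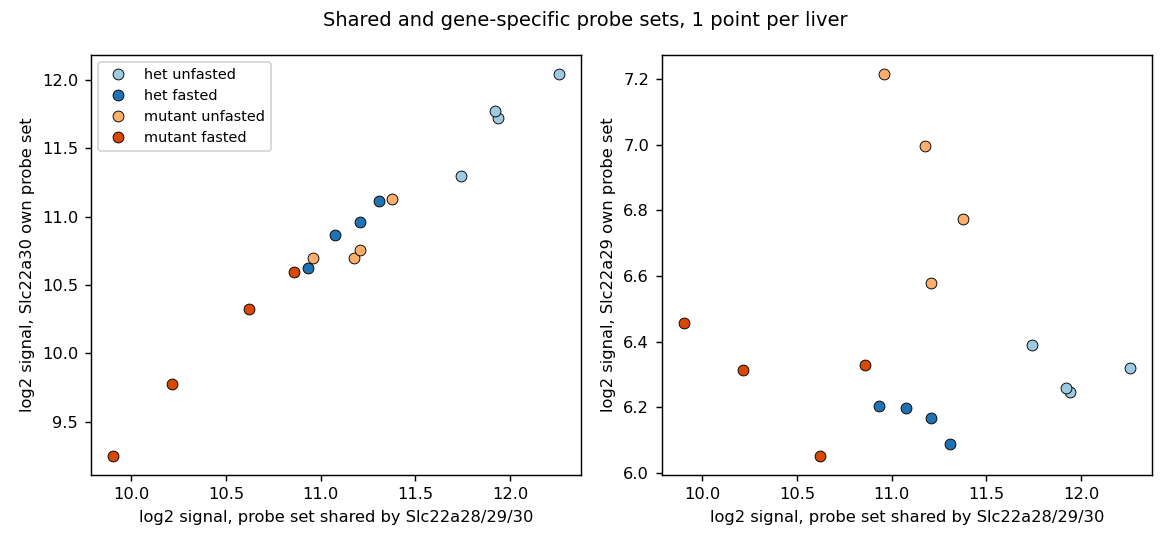
Log2 signal of the probe set shared by Slc22a28, Slc22a29 and Slc22a30 (x axes) against the own probe sets of Slc22a30 (left) and Slc22a29 (right), 1 point per liver, coloured by group. The Slc22a30 points follow a line (r = 0.99 over 16 arrays), and the Slc22a29 points do not (r = -0.05).

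Slc22a23, the orphan, varied least. It lay between 10.64 and 10.78 in unfasted heterozygotes, 10.39 and 10.84 in fasted heterozygotes, 10.86 and 11.10 in unfasted mutants and 10.81 and 10.96 in fasted mutants. Unfasted mutants lay above all unfasted heterozygotes, but the difference of 0.23 ± 0.09 did not pass (limma adjusted p = 0.13), nor did that of 0.19 ± 0.09 between fasted genotypes (limma adjusted p = 0.16). Its fasting differences were -0.04 ± 0.09 in heterozygotes and -0.08 ± 0.09 in mutants (limma adjusted p = 0.93 and 0.58). The unfasted genotype difference was called without fasted heterozygote replicate 3 (limma adjusted p = 0.039) and after a second quantile normalization (0.046).

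Counted over the 6 selected probe sets, 4 passed in the unfasted genotype comparison, 2 higher and 2 lower, where 7.95% of all 19939 features passed (4.25% higher and 3.7% lower). In the fasted genotype comparison it was 4 as well, again 2 in each direction, against 13.6% of all features (8.62% and 5.03%). Fasting called 3 in heterozygotes, 1 higher and 2 lower, against 1.59% of all features (0.737% and 0.853%), and 1 lower in mutants against 3.36% (2.33% higher and 1.02% lower). The interaction of genotype and fasting called none of the 6 by limma, and none at an unadjusted p under 0.05, against 2 features in all (0.01%) and 11% of all features at that unadjusted p. Slc22a29's own probe set had an unadjusted p of 0.0074 for the interaction. The genotype groups did not overlap for 5 of the 6 unfasted and 3 of the 6 fasted, against 12% and 23.7% of all features. The fasting groups did not overlap for 3 of the 6 in heterozygotes and 2 of the 6 in mutants, against 10.5% and 10% of all features. The median difference of the 6 was 0.32 in the unfasted and 0.20 in the fasted genotype comparison, with medians of 0.01 and -0.02 over all features. It was -0.30 for fasting in heterozygotes and -0.64 in mutants, against 0.01 and -0.01. These shares describe genes that were picked with results known. Without unfasted mutant replicate 1, 4 of the 6 were called in the unfasted genotype comparison and 2 for fasting in mutants. Over all 19939 features, 1729 and 1942 were called without that array, against 1585 and 669 with it. Comparisons that share a group share its arrays, so the calls of 1 gene in several comparisons are not independent of each other.

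The rest of the family moved little. Of the 15 other Slc22 genes measured, 1 was lower in unfasted mutants, 1 lower in fasted mutants, none passed for fasting in heterozygotes and 1 rose for fasting in mutants. Slc22a4 (Octn1, a transporter of ergothioneine) accounted for both falls, by -0.37 ± 0.09 unfasted (limma adjusted p = 0.017) and -0.62 ± 0.09 fasted (limma adjusted p = 0.00051), with no overlap in either state. Slc22a21 (Octn3, a carnitine transporter next to Slc22a5) rose by 0.34 ± 0.07 in fasted mutants (limma adjusted p = 0.018), from a mean of 6.67 ± 0.08 (SD, n = 4) to 7.01 ± 0.16. Median differences of the 15 lay between -0.07 and 0.01 in the 4 comparisons, close to those of all features.

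**Figure D4:**
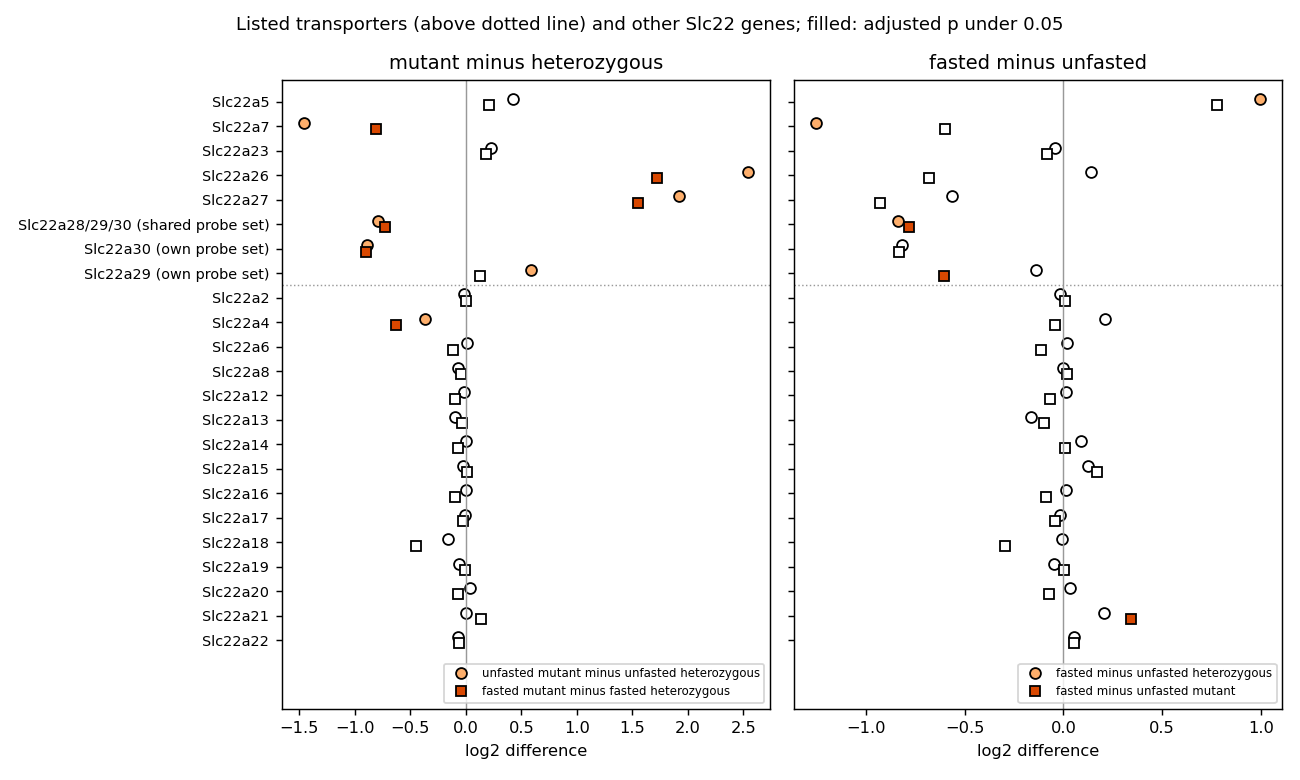
Log2 differences (x axes) between genotypes (left) and with fasting (right) for the listed transporters above the dotted line and 15 other Slc22 genes below it (rows). Filled symbols have an adjusted p under 0.05; below the line only Slc22a4 (left) and Slc22a21 (right) are filled.

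Genes that handle carnitine were set beside Slc22a5. Of 9 measured genes of carnitine synthesis and acyl transfer, 3 rose with fasting in heterozygotes and 3 in mutants, and none fell. In heterozygotes these were Crat (carnitine acetyltransferase) by 0.69 ± 0.16 (limma adjusted p = 0.034), Cpt1a (the entry step of long-chain acyl groups into mitochondria) by 0.52 ± 0.10 and Cpt2 by 0.32 ± 0.07. In mutants they were Cpt1a by 0.46 ± 0.10 (limma adjusted p = 0.023), Slc25a20 (the mitochondrial carnitine carrier) by 0.41 ± 0.10 and Crot by 0.36 ± 0.08. The medians of the 9 were 0.21 and 0.23, against 0.01 and -0.01 over all features. Between genotypes, Slc16a9 was higher in mutants by 0.44 ± 0.10 unfasted and 0.35 ± 0.10 fasted, and Bbox1, the last enzyme of carnitine synthesis, was lower by -0.35 ± 0.09 in unfasted mutants (limma adjusted p = 0.031). No other gene of the 9 passed between genotypes. Of 12 measured targets of PPAR-alpha, 4 rose with fasting in heterozygotes, among them Angptl4 (an inhibitor of lipoprotein lipase) by 1.08 ± 0.18, and 2 rose in mutants. Between genotypes, 5 of the 12 rose in unfasted mutants, with Pdk4 (a brake on glucose oxidation) by 2.17 ± 0.39 and Acot2 by 1.93 ± 0.30, and 3 rose in fasted mutants. Among all features, 0.737% rose with fasting in heterozygotes and 2.33% in mutants. Between genotypes, 4.25% of all features rose in unfasted and 8.62% in fasted mutants.

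Patterns were compared by Pearson correlation over the 16 arrays, among all features but the 8 member probe sets. The genes most like Slc22a5 were Crat (r = 0.95), Acadm (0.94) and Angptl4 (0.94). With the group means removed, r over all 16 arrays was 0.85, 0.79 and 0.82; r was not taken within single groups, and the genes were picked for their r on these arrays. Unfasted heterozygote replicate 4, lowest for Slc22a5 at 8.46, was also the lowest array for these 3 genes. The mean of Crat was 10.92 ± 0.42 in heterozygotes without fasting and 11.61 ± 0.11 with it, and 11.36 ± 0.19 and 11.81 ± 0.11 in mutants (SD, n = 4 each). All correlations here are descriptions, since arrays share group and processing.

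**Figure D5:**
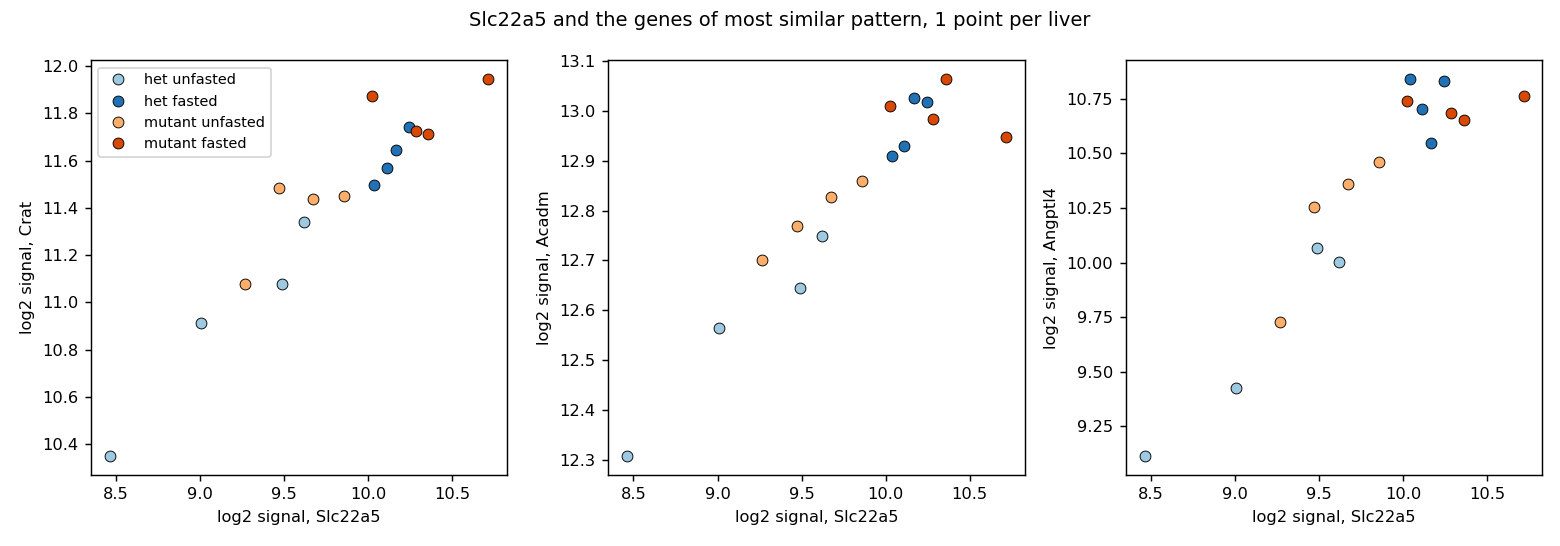
Log2 signal of Slc22a5 (x axes) against Crat, Acadm and Angptl4 (y axes), 1 point per liver, coloured by group. The unfasted heterozygote at 8.46 for Slc22a5 is the lowest point of each panel, and fasted livers lie at 10.02 or above for Slc22a5.

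Other members had other companions. Slc22a7 was most like Sucnr1 (the succinate receptor, r = 0.93), Hes6 (0.93) and Pm20d1 (0.92). Sucnr1 fell by 1.59 in unfasted mutants (-1.59 ± 0.30, limma adjusted p = 0.0048, with overlapping groups) and by 1.60 in fasted mutants (-1.60 ± 0.30, limma adjusted p = 0.0031). Slc22a26 was most like Vldlr (the very low density lipoprotein receptor, r = 0.94), Ccnd1 (cyclin D1, 0.94) and Sytl5 (0.94), and Slc22a27 like Ifitm1 (0.94), Ccnd1 (0.93) and Clcn6 (0.91). The shared probe set was most like Hsd3b2 (a steroid dehydrogenase, r = 0.97), Rbm47 (0.96) and Nit2 (0.95). Hsd3b2 passed in all 4 comparisons, with -1.95 ± 0.36 and -1.98 ± 0.36 between genotypes (unfasted and fasted) and -1.62 ± 0.36 and -1.65 ± 0.36 with fasting (heterozygotes and mutants). The Slc22a30 probe set was most like the same Hsd3b2 (0.98) and Nit2 (0.98), then Cyp4f14 (0.96). Slc22a23 was most like Bdh1 (0.90), and Slc22a29 like Emp1 (0.89).

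Within the cluster, correlations over the 16 arrays with group means removed differed from pair to pair. Slc22a26 and the shared probe set had r = -0.77, while Slc22a27 and the shared probe set had r = -0.22. Slc22a27 had r = 0.50 with Slc22a26 and 0.67 with Slc22a29. For Slc22a26 the fasted mutants split into pairs, while for the shared probe set they were spread more evenly. Replicates 1 and 2 read 9.57 and 9.34 for Slc22a26 and 9.90 and 10.22 for the shared probe set. Replicates 3 and 4 read 8.14 and 8.11 for Slc22a26 and 10.62 and 10.86 for the shared probe set. In this group the 2 livers with more Slc22a26 were those with less of the shared signal. Mutants in this group had fasted for 8 to 12 hours, and the labels do not give the hours of each mouse, so the part of fast length in this spread was not tested.

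Genes with a known sex bias in mouse liver and genes of growth hormone signalling were counted beside the cluster. Of 11 measured female-biased genes, 6 rose in unfasted and 5 in fasted mutants, and none fell, with medians of 1.36 and 0.87 against 0.01 and -0.02 over all features. Cyp2b13 rose by 4.57 ± 0.51 unfasted. Others hardly moved, such as Cyp3a44, with means of 9.95 in unfasted heterozygotes and 10.01 in unfasted mutants. Sult3a1 was dim, with means of 4.44 and 4.43 in the same groups. Of 14 male-biased genes, 11 fell in each feeding state and none rose, with medians of -2.46 and -1.99. Hsd3b5 fell by 5.29 unfasted (-5.29 ± 0.35) and was 1 of 2 that also fell with fasting in heterozygotes (-3.91 ± 0.35). Both lists were drawn up with earlier results of these arrays known. Of 10 growth hormone signalling genes, 3 fell in unfasted mutants, Ghr (the growth hormone receptor) by -0.41 ± 0.09, Igfals by -0.79 ± 0.20 and Igf1 by -0.21 ± 0.06. In fasted mutants Ghr fell by -0.48 ± 0.09 and Bcl6 by -1.30 ± 0.40, while Socs2, a feedback inhibitor, rose by 2.20 ± 0.44. Of 11 measured transcription regulators of the liver, 1 fell in unfasted mutants (Foxa2, -0.35 ± 0.10) and 2 in fasted mutants (Foxa2 and Nr0b2, the latter by -1.40 ± 0.31). Nr1i3 rose by 0.75 ± 0.18 with fasting in heterozygotes. Among all features, 4.25% rose and 3.7% fell in unfasted mutants, and 8.62% rose and 5.03% fell in fasted mutants. With fasting in heterozygotes, 0.737% of all features rose and 0.853% fell.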

How the data were processed

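RNA of 16 livers was measured on 1 array each. The authors deposited 1 table of log2 values, made with Affymetrix Expression Console and RMA per the submitters' processing notes. RMA subtracts a modelled background, sets all arrays to the same distribution and combines probes into probe sets. Versions, library file, genome build and filters are not given in the sources used here. The log2 scale was taken from the range of 3.80 to 14.33. Array medians lay between 7.33 and 7.40, and no 2 arrays were identical. There were no detection calls and no filter on dim genes, and the number of arrays limits the precision.

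Of 35556 probe sets, 21789 had 1 symbol in the platform's annotation (21698 matched the RefSeq table of GRCm38.p6 by gene number), 1621 had several and 12146 were not listed. The brightest probe set per gene and the probe set shared among members gave 19939 features. limma 3.58.1 in R 4.3.3 fitted 1 mean per group to all 16 arrays, with variance moderated on an intensity trend, two-sided tests and Benjamini-Hochberg adjustment over all features in each of 5 contrasts (4 pairwise and the interaction). Features with an adjusted p under 0.05 are called, and "rose" and "fell" refer to these. The fit was checked on simulated data. P-values measure the spread between livers, which the labels number but do not otherwise describe. Promoters were aligned with Biopython 1.88.

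Members, gene lists and tests were chosen with earlier results of these data known. Named genes were all members, Mmut, the 3 most similar genes per member, called genes of the family and up to 4 called genes per other list. Predicted genes were not named. Alternatives were a replicate block, only the arrays compared, array weights, 2 rescalings, 2 forms of variance moderation, the mean over probe sets, a brightness filter, stricter thresholds and leaving out each array. Replicate numbers were not treated as pairs, since the labels do not say what they mark and not every same-numbered pair of arrays deviated together.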

Additional observations from a re-analysis of the deposited data

Results flagged for a closer look

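The Slc22a30 probe set read 11.13 in unfasted mutant replicate 4, against 10.70 to 10.76 in the 3 other unfasted mutants. The gap to the nearest of them, divided by the group's range, was 0.857, above Dixon's 95% critical value for 4 samples. This was 1 of 32 groups of values examined, and chance flags about 1 in 20. The same array was highest of its group for the shared probe set at 11.38 and for Slc22a7 at 8.32.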

How the results depend on the processing

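Counts below are out of the 6 selected probe sets unless given over all features. Leaving out each array in turn gave 4 to 5 calls in the unfasted genotype comparison, 3 to 4 in the fasted one, 0 to 3 for fasting in heterozygotes, 0 to 2 for fasting in mutants and 0 to 0 for the interaction. Over all 19939 features the calls were, in the same order, 699 to 1782, 1576 to 3182, 155 to 359, 224 to 1942 and 0 to 6. At an adjusted p under 0.01 the counts were 2 in the fasted genotype comparison, 0 for fasting in heterozygotes and 0 for fasting in mutants, and with a minimum change of 2-fold they were 2, 1 and 0. Over all features they were 990, 73 and 79 under 0.01, and 184, 49 and 26 with the 2-fold minimum. For fasting in mutants, against 1 call as reported, there were 2 with a replicate block, 0 in a fit of only the arrays compared, 2 among genes above the median brightness and, in an alternative added after seeing the data, 2 among all 8 probe sets. Over all features, against 669 calls as reported, the block gave 645 and the fit of only the arrays compared 33. Above the median brightness, 869 of 9969 features were called. The causes were not tested, beyond the fewer genes or arrays that each fit holds. The block added Slc22a5 (limma adjusted p = 0.020) and, by its own probe set, called the fasting differences of Slc22a30 (0.025 in heterozygotes and 0.021 in mutants). As a check of pairing, deviations from the group means correlated at -0.12 to 0.25 between same-numbered arrays of different groups (median 0.07, 9 of 24 pairs over 0.1) and at -0.35 to 0.33 between differently numbered ones (median -0.03, 9 of 72 over 0.1). Of 16 arrays, 6 correlated best with an array of their own number.

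Sign changes concerned differences near 0 and Slc22a29. The mean of its own and the shared probe set gave -0.10 for the unfasted and -0.30 for the fasted genotype difference of Slc22a29, against 0.59 and 0.12 from its own probe set, by construction since the shared probe set fell. Array weights gave 0.0013 for Slc22a23 with fasting in heterozygotes and 0.10 for the Slc22a30 interaction. That interaction was 0.0066 with median centring and 0.020 with the mean over probe sets. The shared probe set's interaction was -0.044 after a second quantile normalization. Leaving out single arrays gave interactions of -0.38 to 0.0096 for Slc22a5, -0.14 to 0.012 for Slc22a23, -0.10 to 0.22 for the shared probe set and -0.22 to 0.23 for Slc22a30. It gave fasting differences in heterozygotes of -0.10 to 0.055 for Slc22a23 and -0.048 to 0.28 for Slc22a26. The interaction holds all arrays, so it has no fit of only the arrays compared, and the Slc22a29 probe set was not above the median brightness.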
